A study of Saccharomyces bayanus x Saccharomyces cerevisiae with 8 samples.

Results

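The genes described here encode the respiratory chain and the mitochondrial ATP synthase of yeast. The list holds 40 nuclear-encoded genes, chosen by what their proteins are and not by their values, although earlier results of these data were known. The 40 genes are 9 of complex III, 9 of complex IV, 2 of cytochrome c, 3 NADH dehydrogenases, 14 of the ATP synthase and 3 listed as its inhibitor proteins. Of these, 28 are among the 4238 ortholog pairs of the deposited table, and all 28 had enough reads to be tested, as did 4197 genes in all. The table names genes by systematic ORF name only, so each gene is given here by that name and by its complex. The 12 listed genes not analysed here are YBL045C, YJL166W, YGR183C and YHR001W-A of complex III, YNL052W, YIL111W, YMR256C, YLR395C and YDL067C of complex IV, and YPL271W, YML081C-A and YOL077W-A of the ATP synthase.

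RNA came from OZY27, a hybrid in which 1 genome of Saccharomyces bayanus and 1 genome of Saccharomyces cerevisiae share a nucleus. The S. bayanus parent derives from CBS 4001 and carries ade2, his3 and lys2, and the S. cerevisiae parent is isogenic to the laboratory strain W303 and carries his3, leu2, lys2, trp1 and ura3; every sample has all of these alleles. The biological replicates are 2 log-phase cultures of the hybrid in YPD, a rich medium with glucose, at 25 °C, and 1 RNA library was made from each. Replicate 1 was sequenced in 5 lanes and replicate 2 in 3 lanes, at the sites UCB and UCR, so the 8 samples are runs of 2 libraries of a single strain. Both alleles of a gene were read in the same cells, and the comparison asks which allele of each gene had more RNA.

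In respiration, NADH dehydrogenases and succinate dehydrogenase feed electrons to ubiquinone, complex III passes them to cytochrome c, and complex IV passes them from cytochrome c to oxygen. S. cerevisiae has no proton-pumping complex I; its NADH dehydrogenases are single proteins of the inner membrane that do not pump protons. Complexes III and IV pump protons, and the ATP synthase, made of a catalytic head, a rotating stalk and a membrane part, uses the returning protons to make ATP. Small inhibitor proteins hold the enzyme back from running in reverse and breaking down ATP. In glucose medium yeast ferments, and many of these genes are partly repressed.

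Reads assigned to an allele numbered 14707025 in replicate 1 and 8223099 in replicate 2, and single lanes held 2350222 to 3159446. Of these, 48.8% (replicate 1) and 47.3% (replicate 2) belonged to S. cerevisiae. Each allele was scaled to its own genome, so a ratio is relative to the typical gene of that genome. Levels are RPKM, reads per kilobase of mappable sequence scaled to the TMM-adjusted read total of each genome. Log2 ratios are S. bayanus over S. cerevisiae, so negative values mark a lower S. bayanus allele. The threshold was an adjusted p of 0.05 in edgeR's quasi-likelihood test, with Benjamini-Hochberg adjustment over all 4197 genes; "differed" is used of genes that passed it.

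The alleles differed in 16 of the 28 genes (57.1%), against 53.5% of all tested genes, so genes that passed were about as frequent here as among all tested genes. The 28 genes had more reads, with a median of 7170.5 against 2673, and the part of read number in these shares was not tested. The S. bayanus allele was higher in 5 genes (17.9%, against 26.6% of all tested genes), namely the NADH dehydrogenases YDL085W and YML120C and the ATP synthase genes YDR377W, YPR020W and YLR295C. It was lower in 11 genes (39.3%, against 26.9%), which were 2 of complex III, 1 of complex IV, the NADH dehydrogenase YMR145C, 4 of the ATP synthase and all 3 listed as inhibitor proteins. With a shared library size for both genomes, which moves the median of all genes by 0.11 toward S. bayanus, the split was 6 higher and 8 lower, and without pairing the alleles by replicate (no replicate block) it was 2 higher and 4 lower. With correction for the GC difference between orthologs it was 5 higher and 12 lower: YBR039W and YGL191W were gained and YLR295C was lost. In the order given, these fits called 50.8%, 20.6% and 56.2% of all tested genes in either direction.

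Most of the differences were small. The median absolute log2 ratio of the 28 genes was 0.37, and it was 0.37 over all tested genes too, while the median log2 ratio was -0.11 here and -0.0029 over all tested genes. Among the genes that differed, 9 did so by 1.5-fold or more (32.1%, against 29.6% of all tested genes), and 3 by 2-fold or more (10.7%, against 13.2%). These 3 were YDL085W, toward S. bayanus, and the inhibitor genes YGR008C and YDL130W-A, toward S. cerevisiae. Each of the 16 kept its direction in both replicates, at both sites and in 8 of 8 lanes; lanes are repeat runs of the same libraries, and the test itself favours genes with this property. Their log2 ratios from UCB and from UCR lay within 0.26 of each other. The replicates gave ratios of the same sign in 27 of the 28 genes, and in 85.8% of all tested genes; the exception was YHR051W of complex IV.

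**Figure D1:**
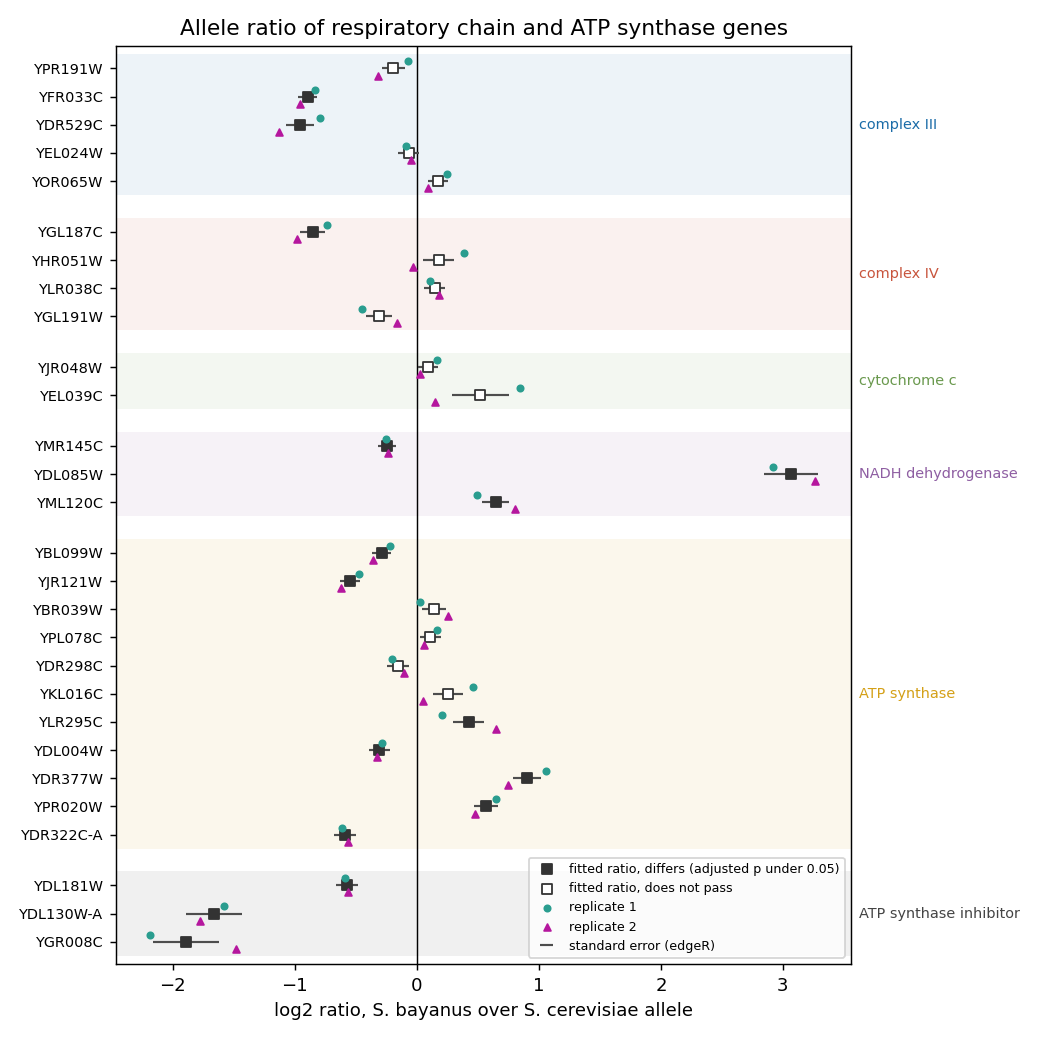
Log2 ratio of the S. bayanus over the S. cerevisiae allele (horizontal axis) for the 28 genes, grouped by complex. Squares are ratios fitted by edgeR with their standard error, filled where the gene differs, and the circles and triangles are replicates 1 and 2. YDL085W lies alone at 3.06, and the inhibitor genes YDL130W-A and YGR008C lie at -1.66 and -1.89.

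The NADH dehydrogenases held the largest ratio of the list and differed in direction. YDL085W, by its name on the left arm of chromosome IV, had an 8.36-fold higher S. bayanus allele. In the lanes of replicate 1 its S. bayanus allele had 31, 28, 42, 45 and 37 reads against 4, 6, 5, 6 and 2 reads of the S. cerevisiae allele, in the order of lanes 1, 2, 5, 6 and 8. In lanes 3, 4 and 7 of replicate 2 it had 41, 72 and 46 reads against 5, 3 and 7. The S. bayanus allele was higher in every lane and the alleles did not overlap. The levels were 20.1 ± 6.94 RPKM for the S. bayanus allele and 2.30 ± 0.419 RPKM for the S. cerevisiae allele (SD, n = 2 replicates). Replicates 1 and 2 gave log2 ratios of 2.92 and 3.27, and the fit over both gave 3.06 ± 0.22 (SE, edgeR adjusted p = 0.00078), rank 26 of the 4197 genes toward S. bayanus. YDL085W was also the most weakly expressed gene of the list, at rank 3976 by summed level. Only 23 and 15 reads of the S. cerevisiae allele lie behind the ratio in replicates 1 and 2. Its orthologs differ most in GC content, with the S. bayanus one richer by 9.83 percentage points; after correction for the GC difference the log2 ratio was 2.78.

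YML120C, the second NADH dehydrogenase with a higher S. bayanus allele, had 1030 and 983 reads of that allele in replicates 1 and 2, against 692 and 507 of the S. cerevisiae allele. Its levels were 128 ± 52.2 RPKM for S. bayanus and 79.5 ± 20.8 RPKM for S. cerevisiae (SD, n = 2), a log2 ratio of 0.65 ± 0.11 (SE, edgeR adjusted p = 0.00698). The spread of the levels is that between replicates, in which culture and library cannot be told apart. Both alleles were higher in replicate 2, the S. bayanus allele by 0.86 and the S. cerevisiae allele by 0.54 on the log2 scale. Within each replicate the S. bayanus allele was the higher one, by 0.49 and 0.81. The third gene, YMR145C, was the most abundant NADH dehydrogenase and went the other way by a small amount. It had 11259 and 9047 reads of the S. bayanus allele against 12357 and 9338 of the S. cerevisiae allele, and levels of 1231 ± 362 RPKM and 1455 ± 412 RPKM (SD, n = 2). The log2 ratio was -0.24 ± 0.07 (SE, edgeR adjusted p = 0.038). Its replicates gave -0.26 and -0.23, but the gene did not pass with a shared library size (edgeR adjusted p = 0.188) or in DESeq2 (adjusted p = 0.134). It also missed the threshold without the length offset (edgeR adjusted p = 0.0624; mappable lengths 1466 bases in S. bayanus and 1427 bases in S. cerevisiae) and without lane 3 (edgeR adjusted p = 0.0546). The summed level of both alleles was 2686 RPKM for YMR145C, 207 RPKM for YML120C and 22.4 RPKM for YDL085W, an order that held in both replicates, with no overlap between genes. Over these 3 genes the allele ratio was larger in size at lower level.

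All 3 genes listed as inhibitors of the ATP synthase had a lower S. bayanus allele, and the 2 weakly expressed ones by more than 3-fold. The class is that of the list, and what each of these proteins does was not examined. YGR008C had 6, 7, 4, 9 and 6 reads of the S. bayanus allele in lanes 1, 2, 5, 6 and 8 of replicate 1, against 22, 28, 28, 32 and 28 reads of the S. cerevisiae allele. In lanes 3, 4 and 7 of replicate 2 it had 10, 4 and 9 reads against 26, 9 and 23. The S. bayanus allele was lower in every lane, by less in replicate 2. Its levels were 23.2 ± 5.05 RPKM against 82.2 ± 10.5 RPKM (SD, n = 2), a log2 ratio of -1.89 ± 0.27 (SE, edgeR adjusted p = 0.0041), or 3.72-fold lower. The replicates gave -2.19 and -1.48.

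YDL130W-A had 36 and 24 reads of the S. bayanus allele in replicates 1 and 2, against 102 and 74 of the S. cerevisiae allele. No lane had more than 9 reads of its S. bayanus allele or fewer than 19 of its S. cerevisiae allele, so the alleles did not overlap. The log2 ratio was -1.66 ± 0.23 (SE, edgeR adjusted p = 0.00372), or 3.17-fold lower, from levels of 23.8 ± 3.92 and 76.8 ± 19.6 RPKM (SD, n = 2). YDL181W was the abundant inhibitor gene, at a summed level of 1822 RPKM against 105 RPKM for YGR008C and 100.5 RPKM for YDL130W-A. It had 1036 and 744 reads of the S. bayanus allele and 1468 and 991 of the S. cerevisiae allele, levels of 733 ± 159 and 1089 ± 224 RPKM (SD, n = 2) and a log2 ratio of -0.57 ± 0.09 (SE, edgeR adjusted p = 0.00497). Its replicates, at -0.58 and -0.56, were nearly equal. YGR008C and YDL130W-A rank 84 and 110 of the 4197 genes toward S. cerevisiae, and YDL181W ranks 681. The orthologs differ in GC content by 0.00, 4.13 and 3.30 percentage points in YGR008C, YDL130W-A and YDL181W, and after correction for the GC difference the log2 ratios were -1.75, -1.80 and -0.69.

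**Figure D2:**
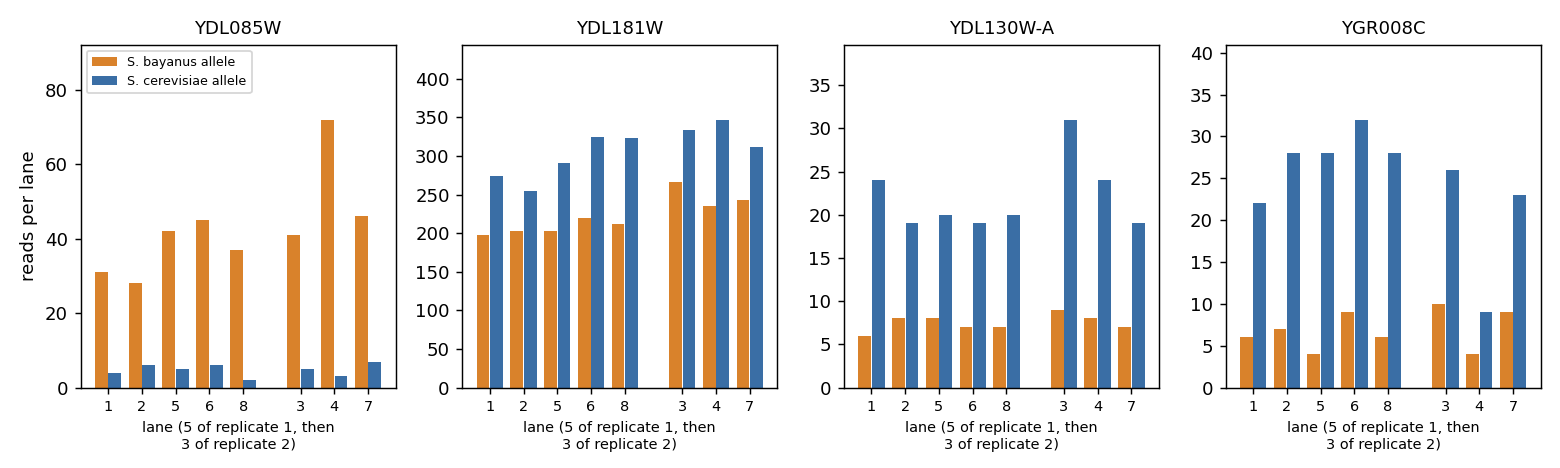
Reads per lane (vertical axis, from 0, on a scale of its own in each panel) of the S. bayanus allele (orange) and the S. cerevisiae allele (blue) for YDL085W and the 3 inhibitor genes, with 5 lanes of replicate 1 and 3 of replicate 2. The S. bayanus bar is the higher one in every lane of YDL085W, which has 28 to 72 such reads, and the lower one in every lane of the inhibitor genes.

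Complex III takes electrons from ubiquinol and gives them to cytochrome c; 5 of its 9 listed genes were in the table. Of these 5, 0 had a higher S. bayanus allele, 2 had a lower one and 3 did not pass the test. YFR033C had 4963 and 3695 reads of the S. bayanus allele in replicates 1 and 2, against 8237 and 6387 of the S. cerevisiae allele. Its S. bayanus allele was lower in each lane, with lane log2 ratios between -1.21 and -0.64. The levels of 2066 ± 499 and 3873 ± 1165 RPKM (SD, n = 2) varied between replicates, and the log2 ratio was -0.89 ± 0.08 (SE, edgeR adjusted p = 0.0013). YDR529C had 1999 and 928 reads of the S. bayanus allele against 3268 and 1837 of the S. cerevisiae allele. Its levels of 688 ± 61.8 and 1340 ± 104 RPKM (SD, n = 2) did not overlap, and its log2 ratio was -0.96 ± 0.11 (SE, edgeR adjusted p = 0.00254). These ratios amount to a 1.86-fold and a 1.94-fold lower S. bayanus allele. The S. bayanus ortholog of YFR033C is richer in GC by 7.77 percentage points. After correction for the GC difference the log2 ratios were -1.14 for YFR033C and -0.79 for YDR529C, so the order of the genes was reversed.

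The other 3 genes of complex III had alleles at most 1.14-fold apart. YPR191W had a log2 ratio of -0.19 (edgeR adjusted p = 0.14), YEL024W of -0.07 (edgeR adjusted p = 0.537) and YOR065W of 0.17 (edgeR adjusted p = 0.135), with standard errors of 0.09, 0.09 and 0.08. YPR191W had 5781 and 2668 reads of the S. bayanus allele in replicates 1 and 2, against 5729 and 3001 of the S. cerevisiae allele, and levels of 705 ± 66.2 and 804 ± 22.6 RPKM (SD, n = 2). YOR065W had 7100 and 4283 reads against 5665 and 3635, and levels of 1298 ± 124 and 1158 ± 198 RPKM (SD, n = 2), which overlapped. Genes of a complex built with fixed proportions of subunits thus spanned log2 ratios from -0.96 to 0.17. YOR065W is the only gene of the list that the authors' deposited table calls and the edgeR test does not; it passed in edgeR with a shared library size, at 0.29 (adjusted p = 0.0354).

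Complex IV, cytochrome c oxidase, reduces oxygen to water, and 4 of its 9 listed genes were in the table. YGL187C had a lower S. bayanus allele, with 868 and 467 reads in replicates 1 and 2 against 1368 and 831 reads of the S. cerevisiae allele. Its levels were 404 ± 5.82 and 735 ± 97.3 RPKM (SD, n = 2), and the log2 ratio was -0.85 ± 0.10 (SE, edgeR adjusted p = 0.00254), or 1.81-fold lower. Every lane lay between -1.18 and -0.60. YGL191W lay just outside the threshold at -0.31 ± 0.11 (SE, edgeR adjusted p = 0.0543), and all 8 of its lanes were negative. It had 2366 and 1159 reads of the S. bayanus allele against 3061 and 1173 of the S. cerevisiae allele, and levels of 881 ± 45.7 and 1101 ± 211 RPKM (SD, n = 2). It passed in 5 of the 19 alternative fits, among them the GC correction (edgeR adjusted p = 0.0227). YLR038C, at 0.15 (edgeR adjusted p = 0.222), and YHR051W, at 0.18 ± 0.13 (SE, edgeR adjusted p = 0.275), did not pass. YHR051W had 1931 reads of the S. bayanus allele against 1399 of the S. cerevisiae allele in replicate 1, and 1132 against 1043 in replicate 2, which gave log2 ratios of 0.38 and -0.03. Its levels of 822 ± 61.7 and 740 ± 203 RPKM (SD, n = 2) overlapped between alleles.

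Cytochrome c, the small soluble carrier between complexes III and IV, is represented by 2 genes of very different level. YJR048W was the most abundant gene of the list, with a summed level of 8363 RPKM, rank 18 of the 4197 genes, while YEL039C had 132 RPKM, rank 2536. YJR048W had 7692 and 5023 reads of the S. bayanus allele in replicates 1 and 2, against 5621 and 3859 reads of the S. cerevisiae allele. Its mappable lengths are unequal, 254 bases in S. bayanus and 220 bases in S. cerevisiae. Per length the levels were 4305 ± 649 and 4058 ± 883 RPKM (SD, n = 2), a log2 ratio of 0.09 ± 0.08 (SE, edgeR adjusted p = 0.367). Without the length offset the log2 ratio was 0.30 (edgeR adjusted p = 0.0275). YEL039C had 137 and 82 reads of the S. bayanus allele against 71 and 66 of the S. cerevisiae allele. Its log2 ratio of 0.52 had the standard error 0.24 (edgeR adjusted p = 0.116), the largest ratio of the 12 genes that did not pass, and its replicates gave 0.85 and 0.15. Its levels of 75.8 ± 6.80 and 56.1 ± 23.6 RPKM (SD, n = 2) overlapped between alleles.

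The ATP synthase had 11 of 14 listed genes in the table, of which 3 had a higher S. bayanus allele, 4 a lower one and 4 did not pass. The median log2 ratio was 0.11, with a range from -0.59 to 0.90. YDR377W had the largest difference, with 2857 and 1286 reads of the S. bayanus allele in replicates 1 and 2 against 1299 and 693 of the S. cerevisiae allele. Its levels were 1335 ± 149 and 714 ± 29.2 RPKM (SD, n = 2), and the log2 ratio was 0.90 ± 0.11 (SE, edgeR adjusted p = 0.00279), or 1.87-fold higher. YPR020W had 1284 and 596 reads against 776 and 386. Its levels were 529 ± 47.5 and 358 ± 3.05 RPKM (SD, n = 2), a log2 ratio of 0.57 ± 0.10 (SE, edgeR adjusted p = 0.00725). Neither gene's alleles overlapped between replicates.

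YLR295C was the third ATP synthase gene with a higher S. bayanus allele, at 0.42 ± 0.13 (SE, edgeR adjusted p = 0.039). Its reads were 2485 and 1516 for the S. bayanus allele, against 2032 and 873 for the S. cerevisiae allele, and its levels were 1025 ± 106 and 762 ± 85.3 RPKM (SD, n = 2). The S. bayanus ortholog is richer in GC by 7.83 percentage points, and after correction for the GC difference the log2 ratio was 0.18 (edgeR adjusted p = 0.132). It also missed the threshold with UCB lanes only (edgeR adjusted p = 0.0561) and without lane 1 (0.0526), lane 3 (0.0582) or lane 7 (0.0504).

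Among the 4 ATP synthase genes with a lower S. bayanus allele, YDR322C-A had 1295 and 598 reads of that allele in replicates 1 and 2, against 1871 and 797 of the S. cerevisiae allele. Its levels were 714 ± 66.8 and 1075 ± 127 RPKM (SD, n = 2), its log2 ratio was -0.59 ± 0.09 (SE, edgeR adjusted p = 0.00478), and its replicates gave -0.61 and -0.56. YJR121W had 7846 and 4649 reads against 10294 and 6441, levels of 1351 ± 112 and 1981 ± 303 RPKM (SD, n = 2) and a log2 ratio of -0.55 ± 0.08 (SE, edgeR adjusted p = 0.0046). YBL099W and YDL004W had smaller differences, of -0.29 ± 0.08 (SE, edgeR adjusted p = 0.0302) and -0.31 ± 0.09 (SE, edgeR adjusted p = 0.0304). Both missed the threshold with a shared library size (edgeR adjusted p = 0.104 and 0.102) and in DESeq2 (adjusted p = 0.0812 and 0.106). YDL004W also missed it without lane 4 (edgeR adjusted p = 0.0534). YBL099W had 9400 and 6840 reads of the S. bayanus allele against 9175 and 7026 of the S. cerevisiae allele, and levels of 1486 ± 336 and 1831 ± 535 RPKM (SD, n = 2). It has unequal mappable lengths, 956 bases in S. bayanus and 849 in S. cerevisiae, and without the length offset its log2 ratio was -0.12 (edgeR adjusted p = 0.265); with GC correction it was -0.44 (edgeR adjusted p = 0.00198). The 4 genes that did not pass, YBR039W, YPL078C, YDR298C and YKL016C, had log2 ratios of 0.14, 0.11, -0.15 and 0.26. With GC correction these were 0.35 (edgeR adjusted p = 0.0119), 0.11 (0.335), 0.01 (0.938) and 0.12 (0.433), so that YBR039W passed. YKL016C had 3512 and 1621 reads of the S. bayanus allele against 2414 and 1414 of the S. cerevisiae allele, and levels of 1092 ± 103 and 916 ± 97.9 RPKM (SD, n = 2). Without GC correction its log2 ratio had the standard error 0.12 (edgeR adjusted p = 0.13).

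The genes of the list were highly expressed for the most part. The median summed level of both alleles was 1749 RPKM, against 184 RPKM over all tested genes, and 24 of the 28 genes lay above that median. The ATP synthase genes lay within a 3.76-fold range, from 886 RPKM for YPR020W to 3333 RPKM for YJR121W, with YBL099W next to the top at 3317 RPKM. YJR121W and YBL099W changed order between replicates, at 3039 and 2701 RPKM in replicate 1 and 3626 and 3933 RPKM in replicate 2, so their order is not resolved. The complex IV genes lay between 1138 and 1982 RPKM, a 1.74-fold range. Complex III was less even, from 800 RPKM for YEL024W to 5939 RPKM for YFR033C, a 7.42-fold range. The 5 genes at 207 RPKM or less were YDL085W, YGR008C, YDL130W-A, YEL039C and YML120C. Across the 28 genes the absolute log2 ratio and the summed level had a Spearman correlation of -0.22, and across all 4197 genes, which share the same libraries, it was -0.21.

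**Figure D3:**
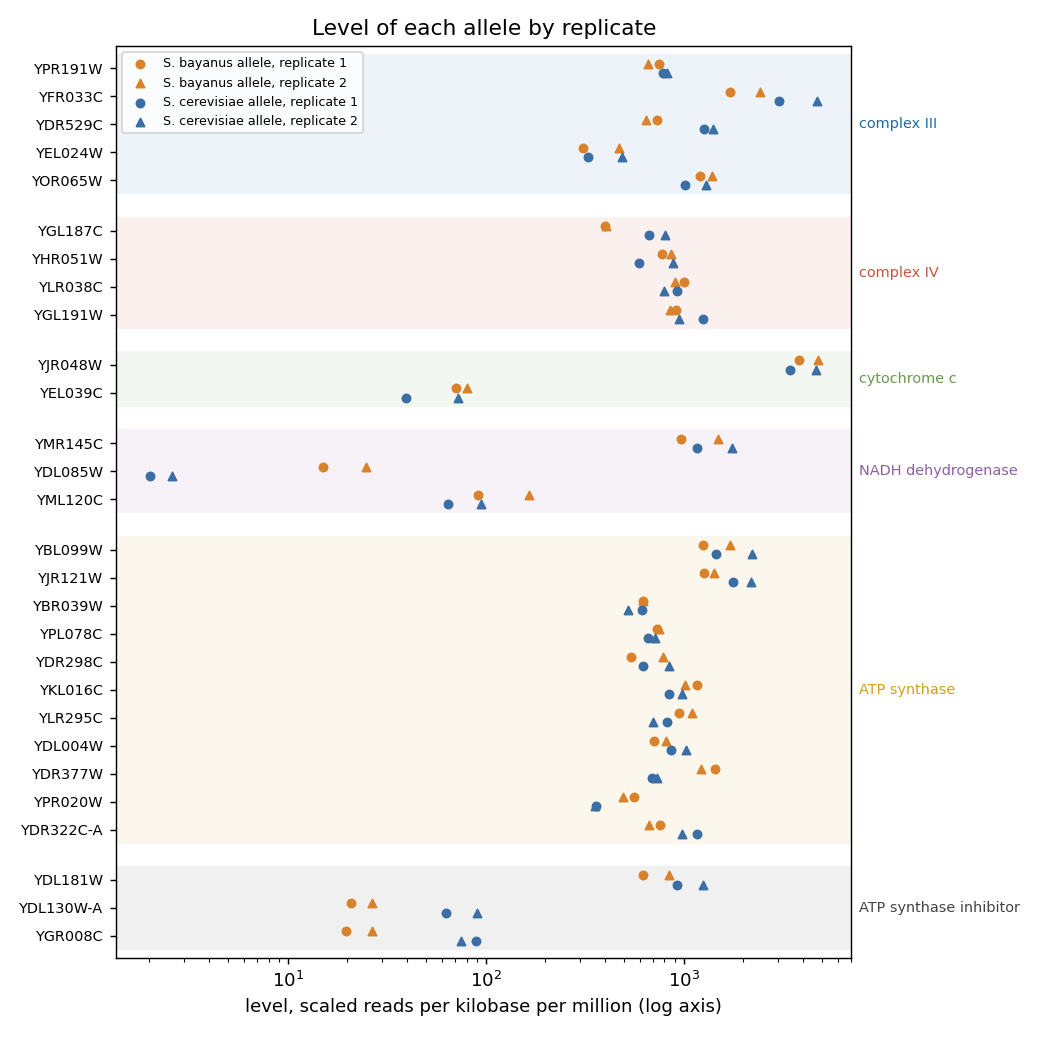
Level of the S. bayanus allele (orange) and the S. cerevisiae allele (blue) in RPKM (horizontal axis, log scale) for the 28 genes, with circles for replicate 1 and triangles for replicate 2. YDL085W, YGR008C, YDL130W-A, YEL039C and YML120C, with summed levels of 207 RPKM or less, lie left of the other genes.

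The cultures were compared next, replicate 2 minus replicate 1, with lanes as units; each culture gave 1 library, so these p-values measure the spread between lanes only, and culture and library cannot be told apart. A shift of the allele ratio passed the test in 10 of the 28 genes (35.7%), against 17.9% of all tested genes. The 28 genes had a median of 7170.5 reads over both alleles and replicates, against 2673 over all tested genes, and a count test finds more differences where reads are many; the part of read number in the higher share was not tested. The S. bayanus share was higher in replicate 2 in 2 of the 28 genes, against 8.72% of all tested genes. It was lower in replicate 2 in 8 of the 28 genes, against 9.22% of all tested genes. This split was 4 and 7 with RLE size factors, 4 and 5 with at least 50 reads, 1 and 6 with UCB lanes only and 2 and 10 after GC correction in each lane. The split over all tested genes moved too: it was 366 and 387 in the fit used here, 414 and 323 with RLE size factors, 447 and 270 with at least 50 reads, 245 and 163 with UCB lanes only and 233 and 591 after GC correction. Without lane 3 or without lane 6, 6 genes differed, and 14.2% and 15.5% of all tested genes. YML120C and YBR039W lay just outside the threshold, with shifts of 0.295 and 0.21 (edgeR interaction test, adjusted p = 0.0515 and 0.0612). Both passed with RLE size factors and with at least 50 reads.

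The shifts lay between 0.16 and 0.43 in absolute size on the log2 scale. In YKL016C of the ATP synthase the log2 ratios were 0.05 in replicate 2 and 0.46 in replicate 1, a shift of -0.43 ± 0.07 (SE, edgeR interaction test adjusted p = 7.14e-05). Its lanes ran from -0.01 to 0.11 in replicate 2 and from 0.38 to 0.55 in replicate 1, with no overlap. YHR051W of complex IV had -0.03 in replicate 2 and 0.38 in replicate 1, a shift of -0.43 ± 0.09 (SE, edgeR interaction test adjusted p = 0.000961). Its lanes also did not overlap, at -0.13 to 0.06 in replicate 2 and 0.19 to 0.57 in replicate 1. After GC correction in each lane this shift was -0.81 (edgeR interaction test, adjusted p = 2.97e-12). YLR295C shifted in the opposite direction, with 0.65 in replicate 2 and 0.21 in replicate 1, a shift of 0.42 ± 0.08 (SE, edgeR interaction test adjusted p = 0.000509). The same correction left a shift of 0.08 (edgeR interaction test, adjusted p = 0.576). YGL191W was the other gene whose S. bayanus share was higher in replicate 2. Its shift was 0.27 ± 0.08 (SE, edgeR interaction test adjusted p = 0.0146), and with UCB lanes only it missed the threshold (adjusted p = 0.142).

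The remaining 6 genes, YDR529C, YDR377W, YPR191W, YOR065W, YJR121W and YBL099W, had shifts of -0.36, -0.33, -0.27, -0.17, -0.16 and -0.16. In that order the standard errors were 0.078, 0.096, 0.059, 0.056, 0.049 and 0.048. The edgeR interaction test gave adjusted p = 0.00108, 0.016, 0.00146, 0.0333, 0.0187 and 0.017. With UCB lanes only, YBL099W and YJR121W missed the threshold as well (edgeR interaction test, adjusted p = 0.238 and 0.0974). Several of these shifts were near the threshold: of 12 alternative fits, YOR065W passed in 3, YJR121W in 4, YBL099W in 5 and YDR377W in 8. Without lane 4 the shift was -0.08 for YOR065W, -0.08 for YJR121W and -0.19 for YDR377W, and that of YBL099W was -0.10 without lane 3 or lane 7 and -0.25 after GC correction. The genes with the largest allele ratios were not among the 10: the shift was 0.33 for YDL085W (edgeR interaction test, adjusted p = 0.735), 0.68 for YGR008C (adjusted p = 0.316) and -0.21 for YDL130W-A (adjusted p = 0.809). Their few reads gave standard errors of 0.53, 0.43 and 0.42, so a shift of the size seen in the other genes was not detectable at this depth.

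**Figure D4:**
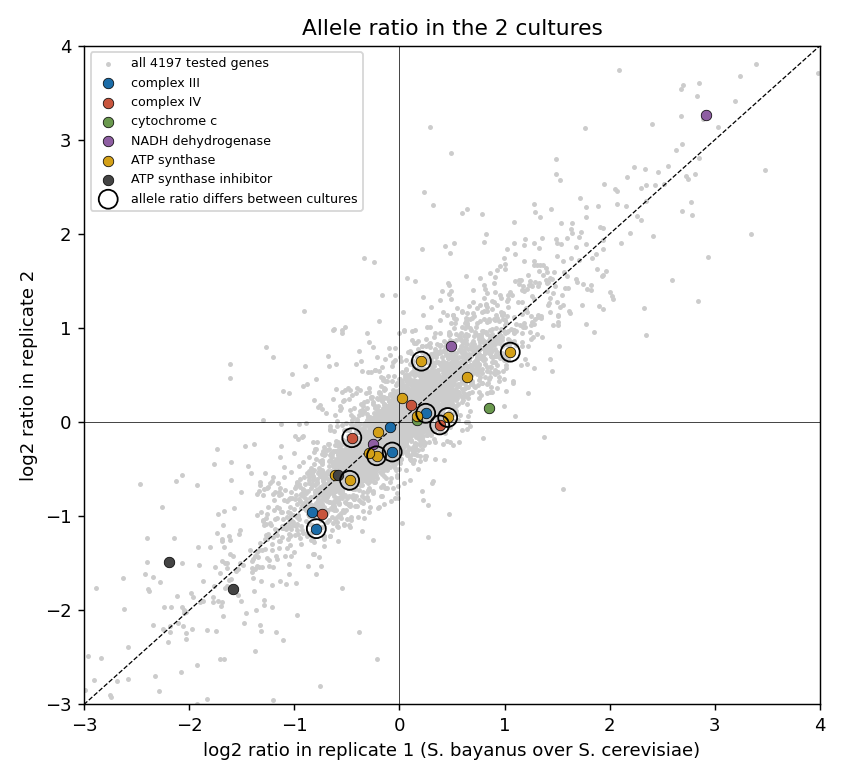
Log2 ratio of the S. bayanus over the S. cerevisiae allele in replicate 2 (vertical axis) against replicate 1 (horizontal axis) for the 28 genes, coloured by complex, and for all 4197 tested genes in grey, of which 52 lie outside the drawn range of -3 to 4. The dashed line marks equal ratios, and rings mark the 10 genes whose ratio differed between the cultures, which lie near the line.

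The total of both alleles, as a share of all reads of the replicate, is described here without a test because each culture gave 1 library. It was higher in replicate 2 in 16 of the 28 genes, against 36.0% of all tested genes, and the median log2 change, replicate 2 minus replicate 1, was 0.12, against -0.12 over all tested genes. The 3 NADH dehydrogenases moved by 0.48 for YMR145C, 0.60 for YDL085W and 0.63 for YML120C, and 6.22% of all tested genes had a change at least as large as the smallest of these. Both cytochrome c genes were higher in replicate 2, by 0.25 for YJR048W and 0.35 for YEL039C. In complex III, YEL024W and YFR033C were higher in replicate 2, by 0.46 and 0.45, as was YOR065W by 0.15, while YPR191W changed by -0.18 and YDR529C by -0.09. Complex IV had the lowest class median, -0.12, with -0.38 for YGL191W, -0.30 for YLR038C, 0.05 for YGL187C and 0.22 for YHR051W. The ATP synthase genes ran from -0.34 for YDR322C-A to 0.42 for YBL099W, with 4 of 11 higher in replicate 2. Of the inhibitor genes, YDL181W and YDL130W-A were higher, by 0.31 and 0.34, and YGR008C changed by -0.23. Total RNA was sequenced without a count of cells, so more RNA per cell and a larger share of a smaller RNA pool cannot be told apart.

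The S. bayanus orthologs of the 28 genes were richer in GC by a median of 2.82 percentage points, against 1.75 over all tested genes, with a range from -0.80 for YBR039W to 9.83 for YDL085W. The log2 ratio and the GC difference had a Spearman correlation of 0.33 across the 28 genes and of 0.25 across all 4197; genes share libraries and are not replicates. In the authors' deposited table, 5 of the 28 genes are marked as higher for the S. bayanus allele and 8 for the S. cerevisiae allele. Of these 13 calls, 12 had the same direction in the edgeR test and 0 the opposite one. The authors' deposited table gives YDL085W natural log ratios of 1.94 and 2.21 in replicates 1 and 2, with p = 0.0001 in both, and does not call YMR145C, YLR295C, YDL004W and YDR322C-A, which passed in edgeR.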

How the data were processed

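RNA was measured by Illumina sequencing of 2 libraries in 8 lanes. The deposited table holds unnormalized read counts for each allele of a gene in every lane, from mapping with Bowtie per the submitters' processing notes. Not given in the sources used here: its version, the genome builds, how genes were annotated, and how reads matching both genomes were handled. Mappable and full lengths of each ortholog, and the GC difference, a score stored as a fraction, come from the deposited table. So do the authors' natural log ratio and p-value for each replicate and their score of -1, 0 or 1 for a call. Another 4 deposited columns, sums over lanes, were not used.

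Lanes are repeat runs, so counts were summed to 2 replicates by 2 alleles. The edgeR 4.0.16 quasi-likelihood test in R 4.3.3 used a replicate block, because 1 library holds both alleles (their changes between replicates had a Pearson correlation of 0.608 across genes), TMM factors for each allele column, and log mappable length as an offset. Genes needed 10 reads over both alleles in each replicate. Standard errors were derived from the log2 ratio and the F statistic. The culture test was an allele by replicate interaction over 16 lane columns, with the lane as a block. The allele and culture tests were also run on simulated data, with the outcome not reported here. Those data held no link between the alleles of a replicate and, for the culture test, no spread beyond Poisson counting. The simulation is therefore no measure of the error of the tests in these data. DESeq2 1.42.0 was an alternative to the allele test. Whether strand was used in counting is not stated, so genes that overlap or resemble another gene are uncertain.

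The members and lists were chosen with earlier results of these data known. Full values are given for genes that differed at 1.5-fold or more, genes that differed between cultures, and the cytochrome c, NADH dehydrogenase and inhibitor genes; other genes named were chosen after their values were seen. Which complex a gene belongs to follows the member list and its description. A list of assembly factors and activators, and promoter motifs, were planned by gene symbol and are not reported here.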

Additional observations from a re-analysis of the deposited data

Results flagged for a closer look

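For 10 genes the S. bayanus over S. cerevisiae ratio was not equal in both cultures by the edgeR interaction test. No lane stood apart in any of the 56 groups of lanes examined for an outlying value (8 lanes, or the 5 lanes of replicate 1, of each gene), where chance alone flags about 1 in 20. The 3 lanes of replicate 2 were not examined on their own, so a lane apart among them could be missed. The log2 shifts, replicate 2 minus replicate 1, were -0.43 for YKL016C and YHR051W, -0.36 for YDR529C, -0.33 for YDR377W, -0.27 for YPR191W, -0.17 for YOR065W, -0.16 for YJR121W, -0.16 for YBL099W, 0.27 for YGL191W and 0.42 for YLR295C. Whether the shifts belong to the cultures or to the libraries cannot be told apart.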

How the results depend on the processing

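The allele test called 5 genes higher for S. bayanus and 11 for S. cerevisiae. No called gene turned round in any of 19 alternative fits. Without the replicate block, 2 and 4 genes were called, and the share called over all tested genes was 20.6%, against 53.5% with it. YDL085W, YDR377W, YDR529C, YGL187C, YDL130W-A and YGR008C kept their calls, and the cause of the other losses was not tested. These 6 genes passed in all 19 fits. With lanes as units, which counts runs as replicates, 13 and 14 genes were called, and 75.6% of all tested genes. Leaving out each lane gave 4 to 5 and 10 to 11 genes, and 48.8% to 57% of all tested genes. DESeq2 called 5 and 8 genes, and 35.3% of all tested genes. A shared library size gave 6 and 8, and 50.8% of all tested genes. Each replicate alone gave a value without a test, and the direction of all 16 held. The culture test gave 10 genes, and 17.9% of all tested genes. With a lane left out it gave 6 to 11 genes, and 14% to 15.8% of all tested genes. Without lane 3 or lane 6 it gave 6 genes, with 14.2% and 15.5% of all tested genes, and the cause was not tested. YPR191W, YDR529C, YHR051W and YKL016C passed in all 12 culture alternatives. Depth limits the weakly expressed YDL085W, YDL130W-A, YGR008C and YEL039C, whose standard errors exceed 0.2. Alternatives for the list of assembly factors and activators were not run, because its gene symbols were not matched to ORF names.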
